A study of Mus musculus with 6 samples.

Results

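The SIBLING genes (small integrin-binding ligand, N-linked glycoproteins) encode the acidic phosphoproteins of mineralized matrix, and their RNA was measured in mouse cortical bone cultured with or without parathyroid hormone (PTH). The members were taken by name as the family that lies in 1 cluster on mouse chromosome 5, which are *Ibsp*, *Spp1*, *Dmp1*, *Mepe* and *Dspp*. They make up 5 of the 31508 gene symbols on the array and 7 of its 45281 probes. Tibiae and femurs of 3 month old C57BL6 mice were flushed of marrow, digested with collagenase and trypsin, and kept overnight in culture as bone tubes. The tubes were then held for 24 hours with no hormone (control, n = 3 arrays) or with Pth 1-34 at 250 nM (PTH, n = 3 arrays). RNA was pooled from the bones of 4 to 5 mice per experiment and hybridized to 1 Illumina mouse bead array per preparation, so that the p-values measure the spread between pooled preparations and not between animals. All 6 preparations shared the strain, the digestion and the culture, and the labels name no transgene.

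SIBLING proteins are secreted by cells of bone and dentin, carry many phosphates and acidic residues, and bind calcium and the integrin receptors of the cell surface through an RGD sequence. In bone, bone sialoprotein (*Ibsp*) is made by osteoblasts laying down new mineral, DMP1 and MEPE (matrix extracellular phosphoglycoprotein) are made chiefly by osteocytes and take part in mineral and phosphate control, and osteopontin (*Spp1*) is made by bone-forming and bone-resorbing cells and holds back crystal growth. Dentin sialophosphoprotein (*Dspp*) belongs mainly to the tooth. PTH is the hormone that raises blood calcium, and it acts on osteoblasts and osteocytes through its receptor PTH1R.

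The start sites of the family are shown because the members that share this locus gave unequal readings in the same RNA. RefSeq windows (assembly GRCm38.p6, from 250 bases before to 50 bases after an annotated start) were matched by symbol for 4 of the 5 members, with a single window for *Ibsp* and *Mepe* and a pair of windows for *Spp1* and *Dmp1*. In 1 window of each of these 4 genes the letters ATTGG, which are CCAAT read on the other strand, were followed by TTTAAA or TTTATA beginning 26 bases later. The windows are all on the plus strand of chromosome 5, at chr5:104299037-104299336 for *Ibsp*, chr5:104434861-104435160 for *Spp1*, chr5:104202367-104202666 for *Dmp1* and chr5:104325079-104325378 for *Mepe*. They are printed 5′ to 3′, with both elements of the pair in capitals.
Ibsp: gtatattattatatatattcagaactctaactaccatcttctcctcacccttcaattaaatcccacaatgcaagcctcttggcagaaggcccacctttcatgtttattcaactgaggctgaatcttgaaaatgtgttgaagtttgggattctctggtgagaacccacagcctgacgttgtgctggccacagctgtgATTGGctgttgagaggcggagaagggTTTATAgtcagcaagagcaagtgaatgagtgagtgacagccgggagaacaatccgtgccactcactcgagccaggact
Spp1: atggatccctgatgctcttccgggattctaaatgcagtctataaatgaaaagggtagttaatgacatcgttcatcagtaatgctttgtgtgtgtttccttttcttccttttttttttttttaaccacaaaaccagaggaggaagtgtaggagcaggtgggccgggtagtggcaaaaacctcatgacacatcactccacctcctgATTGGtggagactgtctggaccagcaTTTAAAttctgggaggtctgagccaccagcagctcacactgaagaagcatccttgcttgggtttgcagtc
Dmp1: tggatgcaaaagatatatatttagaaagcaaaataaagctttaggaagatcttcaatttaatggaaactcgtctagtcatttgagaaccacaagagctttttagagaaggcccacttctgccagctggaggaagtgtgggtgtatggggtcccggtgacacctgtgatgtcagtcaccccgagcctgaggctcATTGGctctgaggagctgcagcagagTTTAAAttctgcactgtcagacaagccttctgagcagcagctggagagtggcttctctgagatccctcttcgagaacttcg
Mepe: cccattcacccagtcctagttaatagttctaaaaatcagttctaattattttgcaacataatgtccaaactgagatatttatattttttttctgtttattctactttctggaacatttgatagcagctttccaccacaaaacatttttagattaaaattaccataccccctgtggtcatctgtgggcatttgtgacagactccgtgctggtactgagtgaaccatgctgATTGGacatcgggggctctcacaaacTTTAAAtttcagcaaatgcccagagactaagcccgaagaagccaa
Counted from the annotated start, the pair began at -54 and -28 in *Ibsp*, at -46 and -20 in *Spp1*, at -57 and -31 in *Dmp1*, and at -21 and 6 in *Mepe*, where the second element lies after the start. The pair was noticed after the sequences had been read, so its presence in the members is a description. Among all RefSeq windows of this length, 17 of 32851 (0.0517%) held it in this order and on this strand, and they belonged to 13 of 27025 genes. Each element alone was common, with CCAAT on either strand in 37.4% and TTTAAA in 13.2% of windows. Whether the pair bears on the response of these genes to PTH was not tested.

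Other motifs were searched on both strands of the same windows. The letters TGACG, the core of the site read by cAMP-response factors, were found in *Ibsp* at -79 and occur in 20.8% of all windows. The letters ACCACA, a form of the site read by the bone regulator RUNX2, were found at -128 in *Spp1*, at -164 in *Dmp1*, and at -118 and -80 in *Mepe*, and occur in 16.8% of all windows. The AP-1 letters TGANTCA occur in 7.81% of all windows and were found in none of the 6 member windows. A match is a match of letters only, and a missing match says only that these letters are not in the window.

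Signals are given first as the deposited intensities of each array in arbitrary units, in the order of replicates 1, 2 and 3, and then as background-corrected, quantile-normalized log2 signals. Probes had to be detected (p under 0.05) on 3 or more arrays to be tested, 11979 genes had such a probe, and a gene was called where its limma adjusted p was under 0.05 and its fold change at least 1.5. The arrays were alike in median signal (111 to 129) and in the share of probes above background (34.2% to 38.4%), but the mean signal of PTH replicate 3 was 429 against 298 to 349 on the other arrays. Correlations of normalized signals across probes were 0.984 to 0.985 between control arrays, 0.982 to 0.984 between PTH arrays and 0.975 to 0.984 across the groups. Of the 5 listed osteocyte markers outside the family, *Phex* and *Pdpn* were above background on all 6 arrays. *Dkk1* was above background on all 3 control arrays and on 2 PTH arrays. *Sost* (sclerostin) was above background on all 3 control arrays and on 1 PTH array, and *Fgf23* (a phosphate hormone) on 0 arrays. In bulk RNA, fewer cells of a type and less RNA per cell cannot be told apart.

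Of the SIBLING genes, *Ibsp* fell to 24.9% of its control level with PTH and *Mepe* to 49.4%. *Dmp1* read lower on every PTH array, at 43.3% of control, but did not pass the test, *Spp1* was among the brightest probes in both groups with a difference near 0, and *Dspp* was not above background on any array. Thus 2 of the 4 tested members were called lower and 0 higher, where 1.04% of all tested genes were called lower and 0.685% higher. The members were chosen with earlier results of these data known, so this contrast is a description. With 1 array left out, the members called lower were 1 without control replicate 1, control replicate 2, PTH replicate 1 or PTH replicate 2, 2 without control replicate 3 and 3 without PTH replicate 3, and the lower calls over all genes fell from 125 to between 28 and 54. By limma at an unadjusted p under 0.05, 3 members were lower and 0 higher. The share of all tested genes at that unadjusted threshold is not given here. This count and the unadjusted counts of the lists below are therefore descriptions without a background. The PTH values lay wholly below the control values for 3 members, a pattern shown by 10.8% of all tested genes, and above them for 0 members, against 11.1% of all tested genes. The median log2 change of the 4 tested members was -1.11, and that of all tested genes was 0.01 with quartiles of -0.16 and 0.17.

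**Figure D1:**
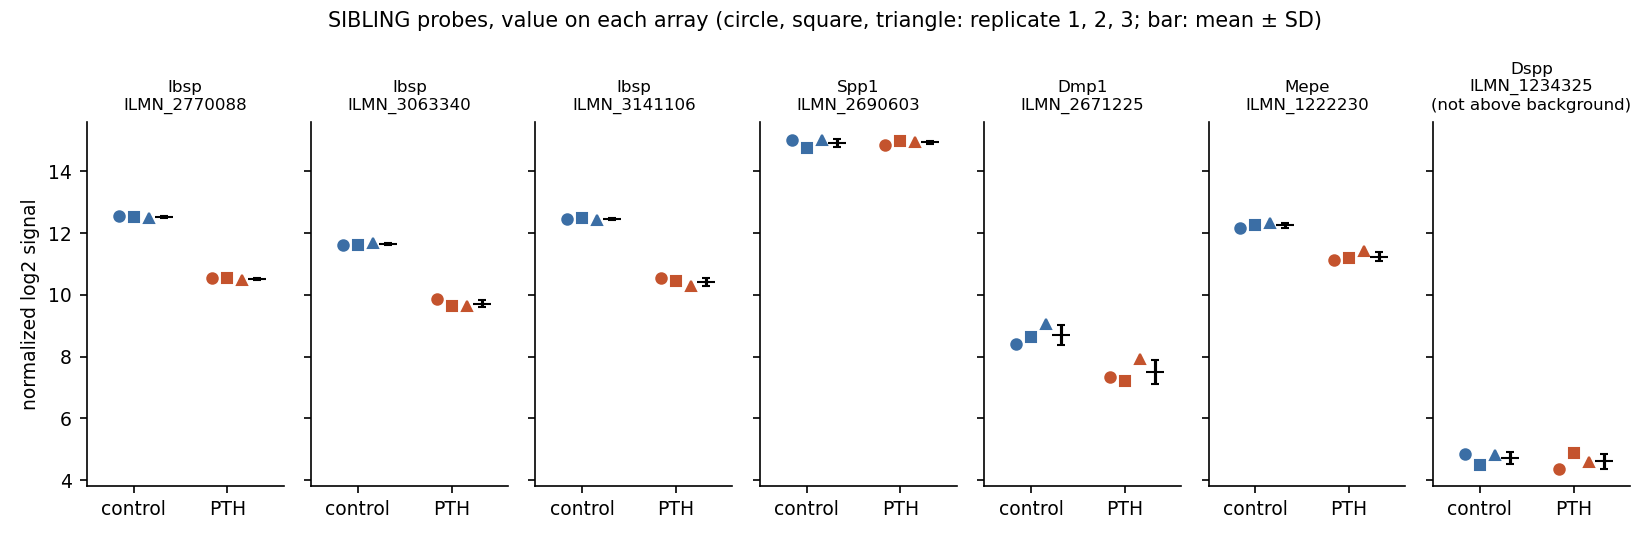
Normalized log2 signal (vertical axis) of the 7 SIBLING probes on each control array (blue) and PTH array (orange), with bars for the mean ± SD of 3 arrays. The 3 *Ibsp* probes, *Dmp1* and *Mepe* separate the groups, *Spp1* overlaps near 15, and *Dspp* stays at background.

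*Ibsp* encodes bone sialoprotein, which nucleates hydroxyapatite. Its brightest probe (ILMN_2770088) read 4863, 5717 and 5651 in controls and 1306, 1619 and 2071 with PTH. The groups were apart before any normalization, and the highest PTH signal was under the lowest control signal by a wide margin. After normalization the log2 signals were 12.56, 12.51 and 12.50 in controls and 10.55, 10.53 and 10.47 with PTH, with means of 12.52 ± 0.03 and 10.52 ± 0.04 (SD, n = 3 each). The log2 change was -2.01 with an SE of 0.11 and a 95% interval of -2.27 to -1.75 (limma, adjusted p = 0.000747), which is 4.02-fold lower. This left 24.9% of the control level (interval 20.8% to 29.8%), and the single PTH arrays stood at 25.4%, 25.2% and 24.1% of the control mean. Ordered by log2 change, *Ibsp* was at place 2 among all tested genes that were lower with PTH.

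The other *Ibsp* probes gave the same picture, with no overlap of the groups on either of them. ILMN_3063340 read 2650, 3208 and 3305 in controls and 839, 922 and 1235 with PTH, a log2 change of -1.92 (SE 0.12, 3.79-fold lower). ILMN_3141106 read 4535, 5633 and 5296 in controls and 1298, 1516 and 1834 with PTH, a log2 change of -2.03 (SE 0.12, 4.07-fold lower). Both had the same limma adjusted p as the brightest probe, 0.000747. The 3 probes report on 1 gene from the same arrays and are not replicates of each other. Among other genes that fell on the same arrays were the red cell markers *Hba-a1* and *Hbb-b1*, which are given below.

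*Mepe* encodes matrix extracellular phosphoglycoprotein, an osteocyte product that carries the ASARM peptide, an inhibitor of mineralization. Its probe (ILMN_1222230) read 3773, 4897 and 5070 in controls and 1909, 2484 and 3820 with PTH. As deposited, the highest PTH array lay just above the lowest control array, so the groups overlapped before normalization. The normalized log2 signals were 12.17, 12.26 and 12.34 in controls and 11.11, 11.19 and 11.41 with PTH, with no overlap. The means were 12.26 ± 0.08 and 11.24 ± 0.16 (SD, n = 3 each), and the log2 change was -1.02 with an SE of 0.13 and a 95% interval of -1.33 to -0.71. This is a 2.03-fold lower level (limma, adjusted p = 0.0128), or 49.4% of control with an interval of 39.9% to 61.1%. The PTH arrays stood at 45.2%, 47.7% and 55.8% of the control mean, and *Mepe* was at place 59 among the lowered genes. The call was lost with arrays scaled to a common median (log2 change -0.93, adjusted p = 0.136). It was also lost without control replicate 1 (adjusted p = 0.0581), control replicate 2 (0.0573), PTH replicate 1 (0.0583) or PTH replicate 2 (0.0605). Over all 6 fits that left out an array the log2 change was -1.10 to -0.95, and *Mepe* passed in 2 of them.

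*Dmp1* encodes dentin matrix protein 1, an osteocyte protein needed for matrix mineralization and for restraint of *Fgf23*. Its probe (ILMN_2671225) read 366, 497 and 605 in controls and 219, 238 and 439 with PTH. The deposited signals overlapped, since PTH replicate 3 read above control replicate 1. The normalized log2 signals were 8.40, 8.65 and 9.04 in controls and 7.33, 7.20 and 7.93 with PTH, which did not overlap. The means were 8.70 ± 0.32 and 7.49 ± 0.39 (SD, n = 3 each), the widest spread of the tested members in either group. The log2 change was -1.21 with an SE of 0.24 and a 95% interval of -1.76 to -0.66 (limma, adjusted p = 0.0557). *Dmp1* therefore was not called, although its estimate of 43.3% of control (interval 29.6% to 63.2%) was below that of *Mepe*. The PTH arrays stood at 38.9%, 35.4% and 58.9% of the control mean, and replicate 3 was the highest array within each group. Without PTH replicate 3 the log2 change was -1.43 and passed (adjusted p = 0.0405), and with cyclic loess it was -1.21 and passed (adjusted p = 0.0487). *Dmp1* passed in only 1 of the 6 fits that left out an array (limma adjusted p up to 0.16). It passed in 4 of the 7 other settings (up to 0.135).

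*Spp1* encodes osteopontin, a ligand of the alpha-v integrins and CD44 made by osteoblasts, osteocytes, osteoclasts and macrophages. Its probe (ILMN_2690603) read 28731, 28408 and 31050 in controls and 26923, 32362 and 39470 with PTH. PTH replicate 1 was the lowest of the 6 arrays and PTH replicate 3 the highest, so the groups overlapped. The normalized log2 signals were 15.00, 14.77 and 15.00 in controls and 14.86, 14.98 and 14.96 with PTH, with means of 14.92 ± 0.13 and 14.93 ± 0.06 (SD, n = 3 each). The log2 change was 0.01 with an SE of 0.13 and a 95% interval of -0.28 to 0.30 (limma, adjusted p = 0.984), so these arrays leave room for levels of 82.2% to 123% of control. Between 18 and 29 probes were brighter than *Spp1* on each array, and its signal was 52.6% to 72.3% of the brightest. A quantile-normalized value is set by the rank of the probe on its array, for *Spp1* as for every other probe.

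*Dspp*, which encodes the main non-collagen protein precursor of dentin, had 1 probe (ILMN_1234325). It read 121, 118 and 114 in controls and 95.5, 118 and 118 with PTH. It was above background on 0 of the 6 arrays and was not tested, so no fold change is given.

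**Figure D2:**
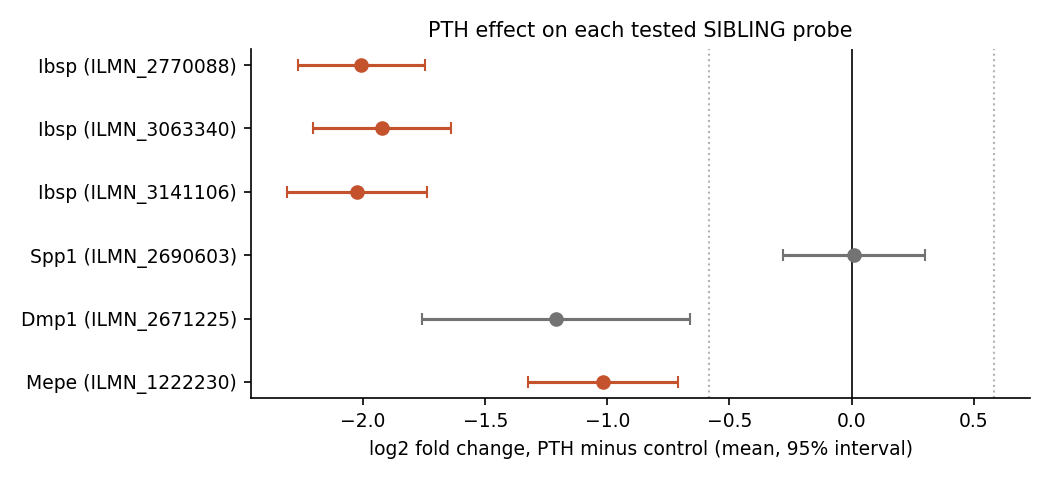
Log2 fold change, PTH minus control (horizontal axis), of the 6 tested SIBLING probes, with the limma mean and 95% interval over 3 control and 3 PTH arrays. Orange probes were called and grey ones were not, and the dotted lines stand at a fold change of 1.5 in each direction. The 3 *Ibsp* intervals lie left of the *Mepe* interval, and that of *Spp1* spans 0.

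Whether the members differed from each other in their change was tested over the 6 arrays for all 6 pairs of the 4 tested genes, with an exact two-sided permutation test of the difference of their log2 signals. With 3 arrays against 3 the smallest exact permutation p is 0.1, so no pair could reach 0.05. *Ibsp* minus *Spp1* differed by -2.02 between the groups (SE 0.09), *Ibsp* minus *Mepe* by -0.99 (SE 0.13) and *Ibsp* minus *Dmp1* by -0.80 (SE 0.32). *Spp1* minus *Dmp1* differed by 1.22 (SE 0.29) and *Spp1* minus *Mepe* by 1.03 (SE 0.12). In each of these 5 pairs the PTH arrays lay wholly on one side of the control arrays, with the smallest exact permutation p of 0.1 (0.12 adjusted over the 6 pairs). *Dmp1* minus *Mepe* differed by -0.19 (SE 0.20) and overlapped (exact permutation p = 0.4). The sign of this last difference turned to 0.10 without background correction, and no pair is shown to differ at 0.05.

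The proteins that cleave and modify SIBLING proteins were read from a list of 14 genes, of which 12 were on the array and 9 tested. 2 were called higher and 0 lower (limma), and at an unadjusted p under 0.05, 3 were higher and 1 lower. *Mmp9*, a gelatinase of osteoclasts, had log2 signals of 11.86 ± 0.11 in controls and 12.59 ± 0.14 with PTH (SD, n = 3 each), a change of 0.73 (SE 0.13, adjusted p = 0.0433). *Acp5*, the tartrate-resistant acid phosphatase that removes phosphate from osteopontin, had 7.09 ± 0.23 and 7.92 ± 0.02, a change of 0.84 (SE 0.15, adjusted p = 0.0372). *Mmp9* did not pass without any one of the 6 arrays, and *Acp5* passed in 1 of those 6 repeats. The brightest other genes of the list differed little, with log2 changes of 0.08 for *Ctsb* (cathepsin B), -0.01 for *Mmp2* (a gelatinase of stromal cells) and -0.09 for *Bmp1*, the protease that processes DMP1 and DSPP. *Phex*, an osteocyte membrane protein that binds and cuts the ASARM peptide and was picked here after its values were seen, had a log2 change of -0.88 (SE 0.19, adjusted p = 0.0761) with no overlap of the groups. The median log2 change of the list was -0.01. *Fam20a* and *Fam20c* were not analysed here.

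*Acp5* and *Mmp9* are also markers of osteoclasts. Of 10 osteoclast markers, 6 were tested and 3 called higher (these 2 and *Oscar*), with a median log2 change of 0.79. By limma at an unadjusted p under 0.05, 5 were higher and 0 lower. The others did not pass, with log2 changes of 1.08 for *Dcstamp* (adjusted p = 0.0742), 0.36 for *Ctsk* (adjusted p = 0.328) and -0.13 for *Nfatc1* (adjusted p = 0.719). The 4 tested *Nfatc1* probes ranged from -0.32 to 0.46. The summed normalized linear signal of the osteoclast markers was 13357 to 14581 in controls and 17432 to 21813 with PTH. *Calcr*, *Atp6v0d2* and *Ocstamp* were not above background on any array. The part of osteoclast RNA in the *Spp1*, *Mmp9* and *Acp5* signals was not tested.

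The receptors of the family showed no called change. Of 10 integrin chains and other binding partners, 10 were on the array and 5 tested, with 0 called in either direction by limma, and 1 lower and 1 higher at an unadjusted p under 0.05. The brightest were *Cd44*, a hyaluronan and osteopontin receptor, with a log2 change of -0.38 (SE 0.11, adjusted p = 0.176), *Itgb5* with -0.16 and *Itga5* with -0.12. The 2 tested *Itga5* probes stood at -0.12 and 0.15. *Itgav*, the alpha-v chain, was picked here after its values were seen, and 1 of its 4 probes was tested. It had a log2 change of 0.58 (SE 0.14, limma adjusted p = 0.106). The groups did not overlap for *Itgav*, which was higher with PTH, or for *Cd44*, which was lower. The median of the 5 tested genes was -0.12.

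Of 10 transcription regulators of bone-forming cells, 7 were tested and 2 called lower, with 0 higher and a median log2 change of -0.20. At an unadjusted p under 0.05, 3 were lower and 0 higher (limma). *Mef2c*, a MADS-box factor of osteocytes and muscle, had log2 signals of 9.50 ± 0.02 in controls and 8.53 ± 0.10 with PTH (SD, n = 3 each), a change of -0.97 (SE 0.12, adjusted p = 0.0104). *Sp7*, the osterix factor that osteoblasts need, had 12.30 ± 0.02 and 11.49 ± 0.15, a change of -0.81 (SE 0.13, adjusted p = 0.0259). *Sp7* did not pass without any one of the 6 arrays, *Mef2c* did not pass without control replicate 1 (adjusted p = 0.0591), and neither gene passed with median scaling. The brightest other genes, *Atf4* (-0.08), *Cbfb* (-0.07, the partner of RUNX2) and *Vdr* (-0.09, the vitamin D receptor), were not called. The 3 tested *Vdr* probes ranged from -0.09 to 0.46. *Runx2* and *Msx2* were above background on 0 arrays.

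Partners of SIBLING proteins in the matrix were 10 genes, of which 8 were tested, with 0 called in either direction by limma and a median log2 change of -0.29. At an unadjusted p under 0.05, 3 were lower and 1 higher. The brightest were *Sparc* (osteonectin), with a log2 change of -0.35 (adjusted p = 0.226), and the type I collagen chains *Col1a1* with -0.54 (SE 0.12, adjusted p = 0.0798) and *Col1a2* with 0.01 (adjusted p = 0.971). The 3 tested *Sparc* probes ranged from -0.40 to 0.50. The tooth and milk relatives of the family, such as enamelin and the caseins, were 9 genes of which 0 were tested and 8 were above background on no array.

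**Figure D3:**
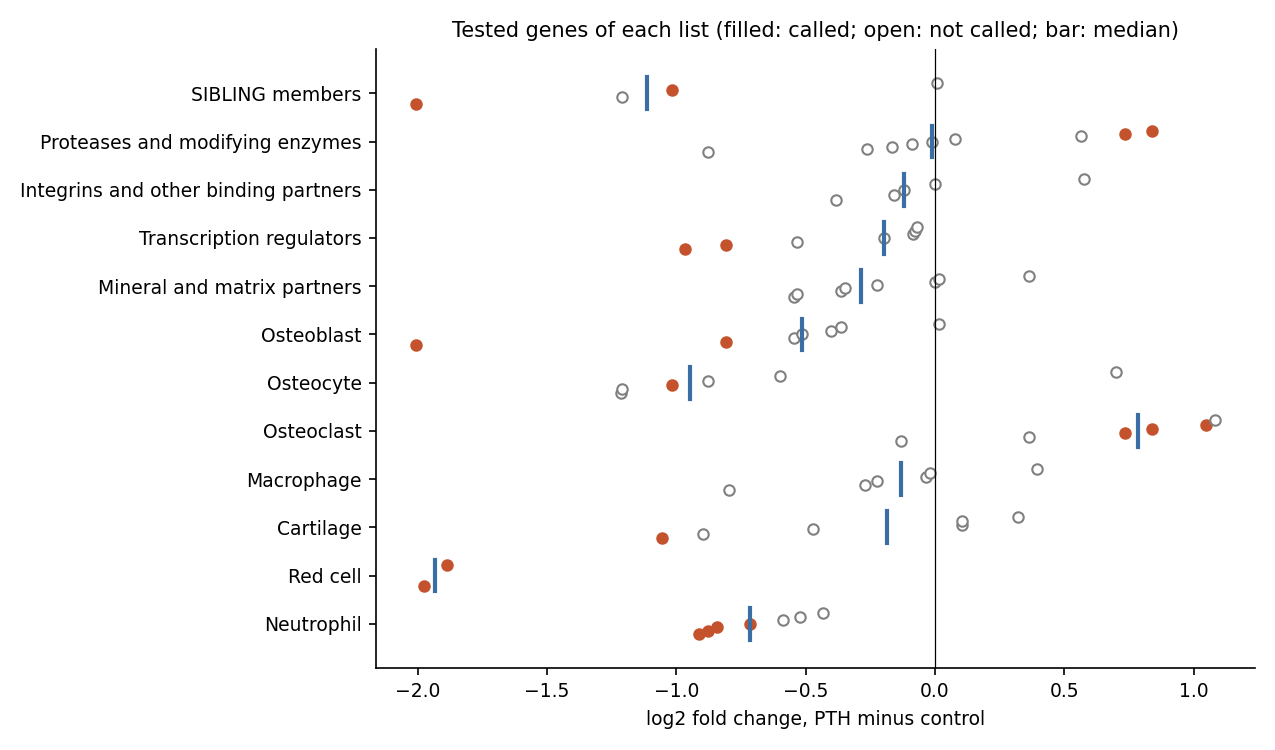
Log2 fold change, PTH minus control (horizontal axis), of each tested gene in the SIBLING family, the pathway lists and the cell type marker lists (rows), with filled points for called genes, open points for others and a blue bar at the median. *Ibsp* stands at -2.01 in the family and again among the osteoblast markers, and the medians of the pathway lists lie between -0.29 and -0.01.

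The marker lists of the cell types that the tubes could hold are given beside these results. Of 8 osteoblast markers, 7 were tested and 2 called lower by limma (*Sp7* and *Ibsp* itself). Of these 7, 6 were lower and 0 higher at an unadjusted p under 0.05. The summed signals were 35330 to 36387 in controls and 23930 to 25259 with PTH. Without *Ibsp* the sums were 29300 to 30601 and 22435 to 23842. The other 6 tested markers had a median log2 change of -0.46, with 5 lower and 0 higher at an unadjusted p under 0.05 (limma). Of 7 osteocyte markers, 6 were tested and 1 called lower (*Mepe* itself), with sums of 7470 to 8873 and 6054 to 7224 that hold *Mepe* and *Dmp1*. Without these 2 members the osteocyte sums were 2520 to 3176 in controls and 3572 to 4251 with PTH, and 0 of the other 4 tested markers were called by limma (2 lower and 1 higher at an unadjusted p under 0.05). *Pdpn* (podoplanin, an early osteocyte marker) had a log2 change of 0.70 (SE 0.14, adjusted p = 0.056) with no overlap of the groups, against -1.21 for *Sost*, -0.88 for *Phex* and -0.60 for *Dkk1*. Its mean log2 signals were 11.12 in controls and 11.82 with PTH, against 8.60 and 7.72 for *Phex*, the next brightest. The sums without the members therefore mostly follow *Pdpn*, and the median log2 change of the 4 tested markers was -0.74. Of 7 red cell markers, 2 were tested and both called lower, with sums of 8666 to 10105 and 2459 to 2718, while *Klf1* was not above background on any array. Of 8 neutrophil markers, 7 were tested and 4 called lower by limma (7 lower and 0 higher at an unadjusted p under 0.05). The neutrophil sums were 53084 to 53959 and 34233 to 38810. Of 8 macrophage markers, 6 were tested and 0 called by limma (1 lower and 1 higher at an unadjusted p under 0.05), with sums of 3729 to 4138 and 3523 to 4097. Of 9 cartilage markers, 6 were tested and 1 called lower (*Acan*, above background on 0 PTH arrays), with 3 lower and 1 higher at an unadjusted p under 0.05. The cartilage sums were 1049 to 1071 and 1109 to 1117, with log2 changes of 0.32 for *Sox9* and -0.47 for *Col2a1*. The 2 tested *Sox9* probes stood at -0.06 and 0.32. The part of these cells in the lower *Ibsp*, *Mepe* and *Dmp1* signals was not tested.

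In the RefSeq gene order the family runs *Dspp*, *Dmp1*, *Ibsp*, *Mepe*, *Spp1* on chromosome 5, with 0 other protein-coding genes between them. Of the 5 protein-coding genes on each side, 5 were on the array and 3 were tested, with 0 called by limma and 0 at an unadjusted p under 0.05. *Pkd2*, the neighbour of *Spp1* that encodes a cation channel, had a log2 change of -0.12 (SE 0.12). On the other side *Nudt9*, an ADP-ribose hydrolase, had 0.16 (SE 0.16) and *Hsd17b11*, a steroid dehydrogenase listed under an older name, had -0.42 (SE 0.26). The groups overlapped for all 3 of them. The called genes, *Ibsp* and *Mepe*, are adjacent and lie between *Dmp1* and *Spp1*.

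**Figure D4:**
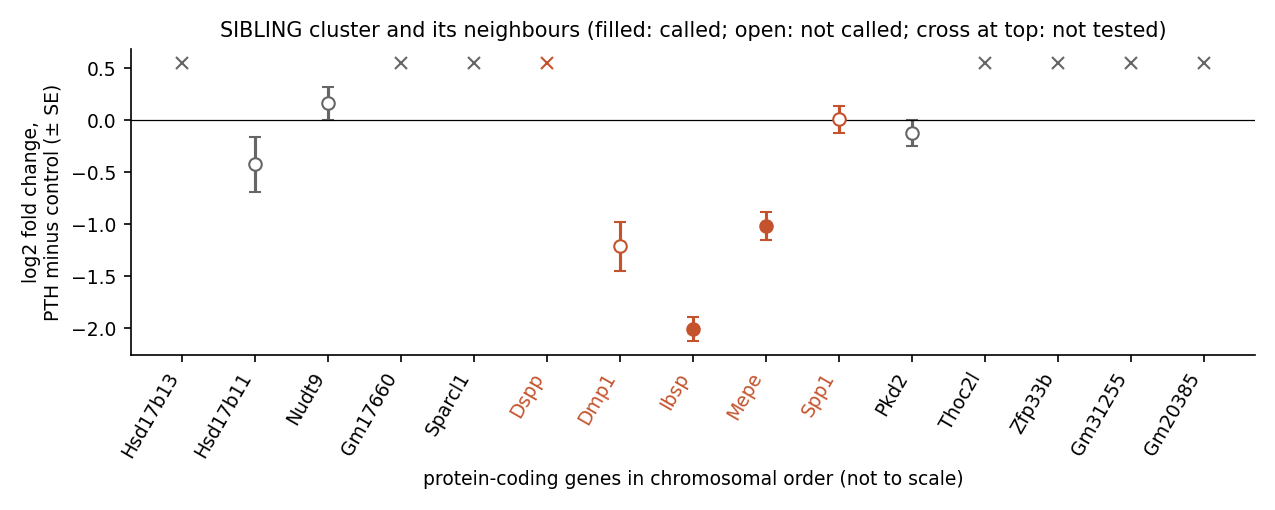
Log2 fold change ± SE, PTH minus control (vertical axis), of the SIBLING genes (orange) and their protein-coding neighbours (grey) in chromosomal order, not to scale, with filled points for called genes and crosses at the top for genes not tested. The changes reach -2.01 at *Ibsp* and lie between -0.42 and 0.16 for the 3 tested neighbours.

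For each tested member, the genes with the most similar profile were those with the smallest root mean square distance between centred log2 signals over the 6 arrays. Nearest to *Ibsp* were *Hba-a1* (an alpha globin, distance 0.052, log2 change -1.98), *Panx3* (a channel protein of osteoblasts and cartilage, 0.11, -1.84) and *Hbb-b1* (a beta globin, 0.11, -1.89). Nearest to *Mepe* were *B430305P08Rik* (0.065, -0.96), *Dysf* (dysferlin, a membrane repair protein, 0.093, -1.01) and *LOC386463* (0.12, -0.92, above background on 4 arrays). Nearest to *Dmp1* were *Cryab* (a small heat shock protein, 0.13, -1.19), a probe named eGFP (0.14, -1.29) and *Rasl11a* (a small GTPase, 0.18, -1.32). Nearest to *Spp1* were *2410011O22Rik* (0.023), *Rhot1* (a mitochondrial GTPase, 0.032) and *Mrpl12* (a mitochondrial ribosome protein, 0.033), whose signals varied little over the 6 arrays. No other SIBLING gene was among the nearest 3 of any member. The distance includes the change with PTH, so genes with unequal changes lie apart by that alone.

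The eGFP probe is described because the labels name no transgene. It read 307, 360 and 468 in controls and 168, 205 and 327 with PTH, and was above background on all 6 arrays. The groups overlapped as deposited, since PTH replicate 3 read above control replicate 1. The probe was reached as 1 of the 3 profiles nearest to *Dmp1*. Its likeness to *Dmp1*, with replicate 3 highest in each group, follows from that choice. After normalization the PTH arrays were all below the controls, with a log2 change of -1.29 (SE 0.23, limma adjusted p = 0.0409). What this probe hybridized to was not tested.

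**Figure D5:**
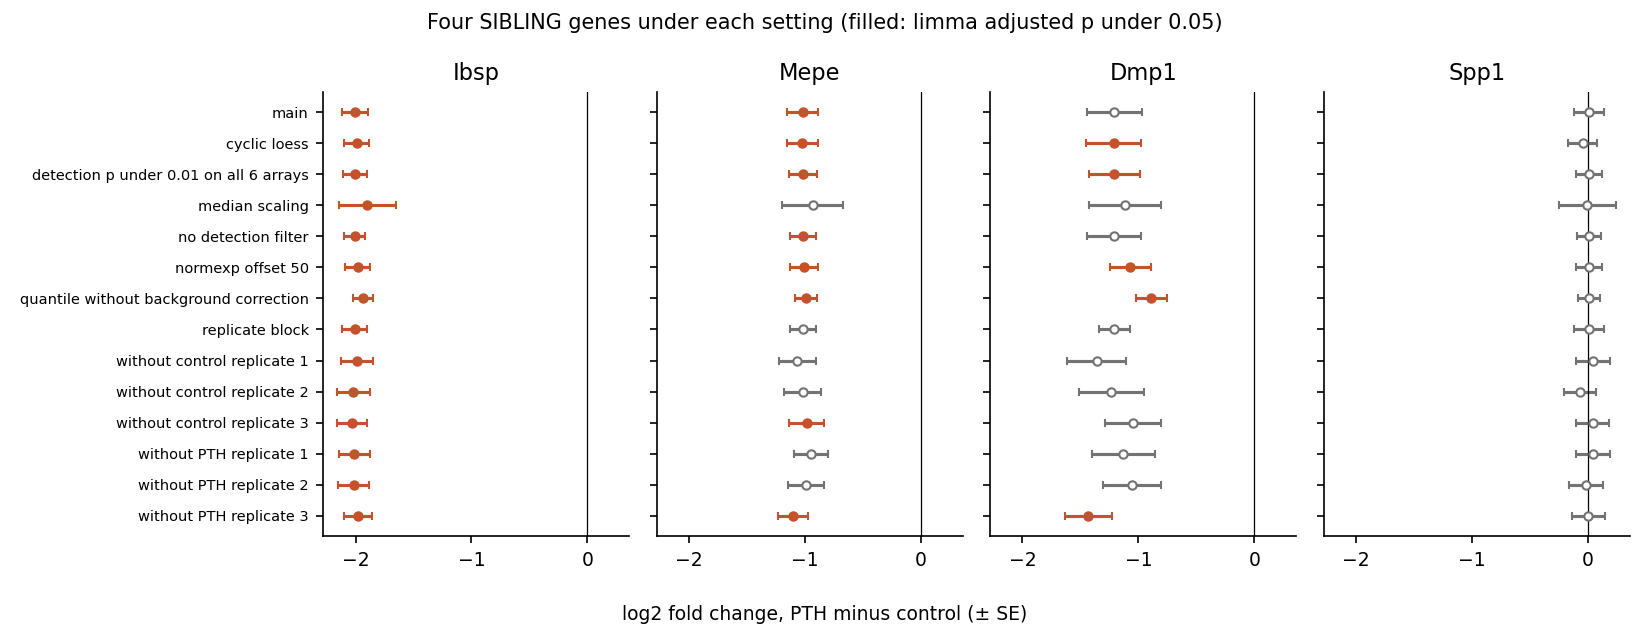
Log2 fold change ± SE, PTH minus control (horizontal axes), of *Ibsp*, *Mepe*, *Dmp1* and *Spp1* under each processing setting (rows), with filled points where the limma adjusted p was under 0.05. *Ibsp* was filled in every setting shown, *Spp1* in none, and *Mepe* and *Dmp1* moved across the threshold while staying below 0.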

How the data were processed

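Cortical bone tube RNA from 3 control and 3 PTH preparations was hybridized to Illumina mouse bead arrays. The authors deposited 1 table with an average signal intensity and a detection p-value per probe and array from GenomeStudio (version not given in the sources used here). The intensities were not quantile-normalized as deposited, and the number of arrays limits their precision. The table names no genome build, slide or probe sequence. All per-sample columns were used (0 left out).

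Signals were background-corrected through the detection p-values (normexp, offset 16), quantile-normalized and log2-transformed with limma 3.58.1 in R 4.3.3, as in neqc. Probes with detection p under 0.05 on at least 3 of 6 arrays were fitted (lmFit, eBayes) as PTH minus control with no covariates, with Benjamini-Hochberg adjustment over all tested probes. A gene was represented by its tested probe with the highest mean signal. A call needed an adjusted p under 0.05 and a fold change of at least 1.5. The code was tested on simulated data. The members and lists were chosen with earlier results of these data known. Named were all members, each called gene of the pathway lists and locus neighbours, up to 3 other genes per list with the largest signal, and the 3 nearest profiles per member. Older symbols were matched through RefSeq synonyms. Alternatives were other background corrections, offsets, normalizations, detection filters and fold minima, every probe counted, a replicate block, and leaving out each array.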

Additional observations from a re-analysis of the deposited data

How the results depend on the processing

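*Ibsp* passed in all 7 other settings (adjusted p up to 0.0131) and in all 6 fits that left out an array, with log2 changes of -2.03 to -1.90. *Spp1* passed in none of them (-0.07 to 0.05). *Mepe* fell short with median scaling (-0.93) and lay between -1.10 and -0.95 with an array left out. *Dmp1* passed with cyclic loess (-1.21), detection p under 0.01 on all 6 arrays (-1.21), offset 50 (-1.07) and quantile normalization alone (-0.89), and lay between -1.43 and -1.04 with an array left out. It did not pass with median scaling (limma adjusted p = 0.135), without a detection filter (0.116) or with the replicate block (0.0508). With an array left out it passed in 1 of 6 fits. Counted by probe, 4 member probes of the same 2 genes were called lower. Members called lower numbered 1 with median scaling, and 1 to 3 when an array was left out. They numbered 3 with cyclic loess, the stricter detection filter, offset 50 or quantile normalization alone. All genes called lower were 125, against 31 with median scaling, 77 with quantile normalization alone and 28 to 54 when an array was left out. They were 96 without a detection filter, 139 with cyclic loess, 155 with offset 50 and 155 with the stricter detection filter. With median scaling 52.3% of called genes were higher, against 39.6%, and the median log2 change of all genes was 0.08. Of the proteases, the 2 called higher became 0 with median scaling, 0 without a detection filter, 1 with quantile normalization alone and 0 to 1 without an array, and the 0 called lower became 1 with the stricter detection filter, 1 with offset 50 and 1 with quantile normalization alone. Of the transcription regulators, the 2 called lower became 0 with median scaling and 0 to 1 without an array. The cause was not tested. The alternatives for the lists and for *Mmp9*, *Acp5*, *Sp7* and *Mef2c* were chosen after seeing the data.

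The groups share replicate numbers. Deviations of arrays of the same number correlated at 0.067, 0.064 and 0.27, and those of unlike numbers at -0.142 to 0.073. These values do not settle whether the numbers mark a pairing, and the main fit had no block. With the replicate block, 25 genes and 1 member were called lower, *Mepe* did not pass (-1.02, adjusted p = 0.0508), 0 proteases were called higher and 0 transcription regulators lower. *Dmp1* did not pass either, at -1.21 (limma adjusted p = 0.0508), with an SE of 0.13 against 0.24 without the block. The slide as a block was not run because no slide is named. No value is given for *Dspp* under any setting, because its probe was above background on 0 arrays.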

Other observations

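The ATTGG and TTTAAA or TTTATA pair described for the SIBLING start sites was present in 9 other genes, of which 5 were on the array, 3 were tested and 0 called by limma. One of them was *Sost*, the osteocyte inhibitor of Wnt signalling, on the minus strand of chromosome 11 at chr11:101966966-101967265 (GRCm38.p6, RefSeq), with the pair at -56 and -30. Its window is shown because *Sost* is itself an osteocyte gene, with the pair in capitals.
Sost: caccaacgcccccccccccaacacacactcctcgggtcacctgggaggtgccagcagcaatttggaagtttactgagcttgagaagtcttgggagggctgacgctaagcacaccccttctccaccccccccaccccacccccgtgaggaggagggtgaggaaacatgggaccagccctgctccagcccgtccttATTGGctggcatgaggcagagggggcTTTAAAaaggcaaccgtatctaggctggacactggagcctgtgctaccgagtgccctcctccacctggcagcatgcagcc
*Sost* had a log2 change of -1.21 (limma adjusted p = 0.15), and *Mbd3* and *Vsnl1* had -0.03 and -0.39. The genes with the pair that were not tested were *Olfr776*, *Olfr799*, *Gm30256*, *Gm33539*, *Gm40986* and *Gm42352*. No inference on shared control was drawn from the shared letters.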
